A study of Ovis aries with 32 samples.

Results

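The fat of the tail was compared between Tan sheep fed a basal pellet (CON) and Tan sheep fed that pellet with succinic acid added (SA). The comparison used the 8 tail fat libraries, 4 of each diet, of the 32 RNA-seq libraries in the series, and it was made over genes that reached 1 TPM in 4 or more of these 8 libraries, which kept 11185 of 30722 genes. TPM, a length-corrected unit, is the share of a library's transcripts that a gene takes, scaled in principle to the same total in each library. The 8 deposited tail fat columns summed to between 951010 and 987320 TPM. All the sheep were male and 3 months old at the start, lived in pens of their own with free access to feed, and were given their diet for 60 days after 10 days of adaptation. The SA pellet held succinic acid at 1% of its dry matter. Each diet had 12 sheep, and 4 per diet were sequenced, so each library is 1 sheep. The week before slaughter was one of rhythmic sampling, with feed given at 4 times spread over day and night. No source used here gives the hour at which each sheep was sampled.

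Succinate is an intermediate of the tricarboxylic acid cycle, where succinate dehydrogenase oxidises it inside mitochondria. Outside the cell it is a ligand of the receptor SUCNR1, and it can act on hypoxia signalling when it accumulates. The fat cell, or adipocyte, stores energy as triglyceride. In ruminants it builds new fatty acids mainly from acetate, which comes from fermentation in the rumen, and only to a small degree from glucose. Tan sheep are a fat-tailed breed, and the tail is a large store of white fat.

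The libraries held the transcripts of white fat. All 18 genes listed as adipocyte markers passed the filter, and their summed level lay between 16210 and 73010 TPM in CON and between 19450 and 73380 TPM in SA. FABP4, the fatty acid carrier of adipocytes, stood at 21129, 62104, 8711 and 8656 TPM in CON 1 to CON 4 and at 36701, 54388, 36756 and 8016 TPM in SA 1 to SA 4. UCP1, the uncoupling protein of brown fat, did not exceed 4.80 TPM. Over all 8 libraries the summed level of endothelial markers was 128 to 515 TPM, of macrophage markers 17.5 to 121 TPM and of fibroblast markers 389 to 1367 TPM. Markers of mast cells and neutrophils summed to 578 to 1702 TPM in CON and 719 to 5770 TPM in SA, highest in SA 4, where adipocyte markers summed to 19450 TPM. Of the 9 such markers in the table only S100A8 and S100A12 passed the filter, and 6 were under 1 TPM in every library. The sum is thus no measure of the number of these cells. Of the 14 markers of T, NK and B cells in the table, 11 were under 1 TPM in every library, among them CD3D, CD4 and CD79A.

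Several libraries stood apart from others of their diet. Mitochondrially encoded transcripts took 46.9%, 22.5%, 70.6% and 61.1% of TPM in CON 1 to CON 4 and 25.6%, 36.4%, 45.2% and 50.2% in SA 1 to SA 4, so the diets overlapped. CON 2 and SA 1 had CCDC152 at 0.12 and 0.07 TPM against 57.8 to 186 TPM in the other 6, and its neighbour SELENOP at 972 and 598 TPM against 46.0 to 197 TPM. CON 2 and SA 1 also held muscle creatine kinase CKM at 37.2 and 11.8 TPM, which was at most 0.13 TPM elsewhere. No label sets these libraries apart, and the split by CCDC152 is called the library kind from here on, with 1 such library of 4 in each diet. CON 4 held liver transcripts, with a summed level of liver markers of 805 TPM against 5.46 to 16.9 TPM in the other 7 libraries, and albumin (ALB) alone at 473 TPM. SA 4 had the fewest genes at 1 TPM or more, 9476 against 10152 to 12753, and ribosomal and transfer RNA at 6.13% of TPM. What these differences contribute to the results was not tested beyond the fits with and without these libraries given below. In tissue samples, fewer cells of a type and less RNA per cell cannot be told apart.

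**Figure D1:**
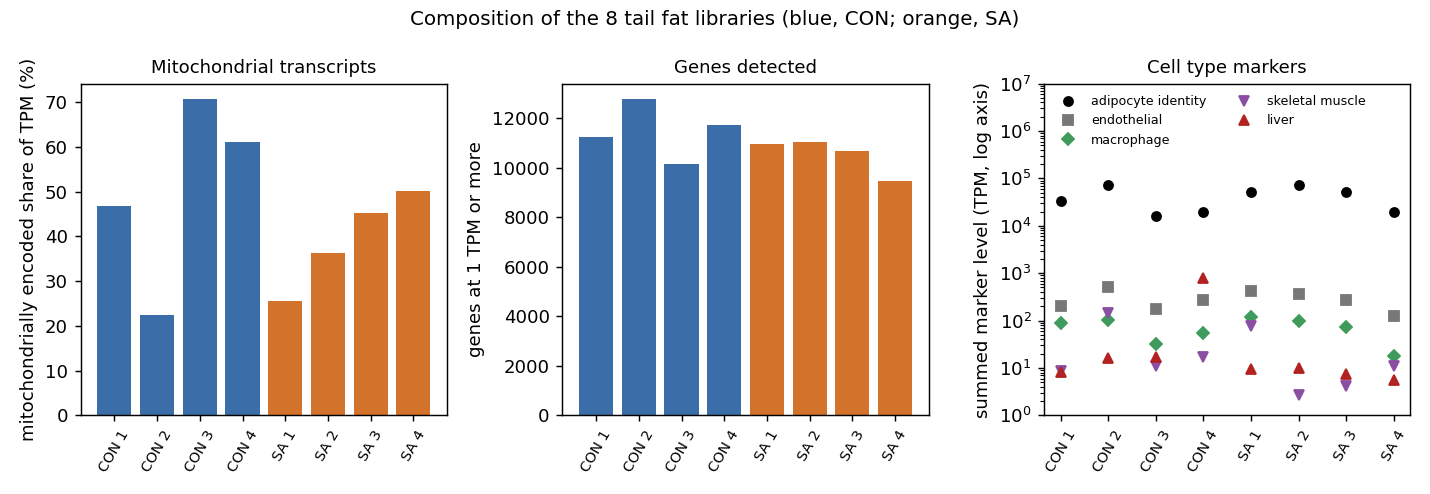
Composition of the 8 tail fat libraries, with 1 bar or set of points per library (blue, CON; orange, SA). The left panel shows the mitochondrially encoded share of TPM in percent, the middle panel the number of genes at 1 TPM or more, and the right panel the summed TPM of 5 marker lists on a log axis, where liver markers reach 805 TPM in CON 4 and skeletal muscle markers 145 TPM in CON 2 and 76.4 TPM in SA 1.

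The comparison asked which genes of tail fat differ in level between the diets. With SA, 31 genes were higher and 47 were lower at an adjusted p under 0.05 (limma, Benjamini-Hochberg over all 11185 genes), which is 0.277% and 0.42% of the genes tested. The water channel AQP5, the secretin receptor SCTR and the phosphatase PPM1L led the genes that rose, and the adipose gene FAM13A led those that fell. The genes that rose included the abundant metabolic genes BCAT2, AGPAT2 and MGST3. Of the 47 that fell, 46 had a CON mean under 30 TPM. So did all of the 31 that rose except these named genes and the unnamed gene ENSOARG00020034652. A change is the SA mean minus the CON mean of log2(TPM + 1), so 1 unit is a doubling for abundant genes, and the fold of scarce genes is understated. The median change over all genes was −0.065, with 5199 genes at a higher and 5986 at a lower value, and 1596 genes had an unadjusted p under 0.05.

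The 4 SA libraries lay above all 4 CON libraries for 518 genes (4.63% of those tested) and below all 4 for 565 genes (5.05%). All 78 genes that passed the test were among these. A gene under 1 TPM in all 4 libraries of a diet entered only if all 4 of the other diet reached 1 TPM. For such genes the filter fixed the lack of overlap in advance, and the shares of 4.63% and 5.05% include them. FAM13A, LGI1, HOXD4, CACNB2, ITIH4 and NCAPD2 were among such genes that fell. TMEM37, FKBP1B, ALOX5, BCL2A1, PEBP4 and PAQR7 were among such genes that rose. The count of 78 depended on single libraries. It was 8 without SA 3, 10 without CON 1, 20 without CON 4, 20 without SA 4, 47 without SA 1, and 314 without CON 2, and only AQP5, SCTR, PPM1L, FAM13A and the unnamed gene ENSOARG00020038155 passed whichever library was left out. With the library kind as a covariate, 432 genes (3.86%) were higher and 331 (2.96%) lower, and 77 of the 78 genes stayed past the threshold. The kind is balanced over the diets, so the covariate leaves each change as it was and alters only its error. A call with the covariate is therefore not a corrected change. Without CON 2 and SA 1 the numbers were 239 (2.14%) and 159 (1.42%), again with 77 of the 78. When mitochondrially encoded and ribosomal RNA genes were removed and the rest rescaled, the median change over 12721 genes became −0.395, 170 genes (1.34%) were higher and 1204 (9.46%) lower. The higher genes then made up 12.4% of the calls in place of 39.7%, while 77 of the 78 genes were again past the threshold in the same direction. Other settings kept fewer, 59 of the 78 with a pseudocount of 0.1 and 66 with quantile normalization, where 36 of the 47 that fell still passed.

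**Figure D2:**
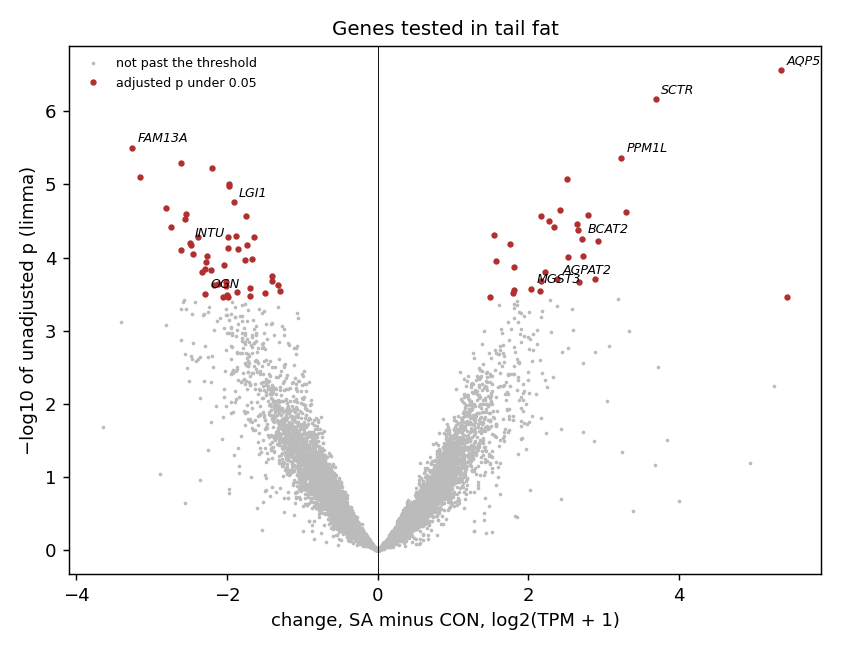
Change of each tested gene in tail fat (x axis, SA minus CON, log2(TPM + 1)) against −log10 of its unadjusted limma p (y axis). Red points are the 78 genes with an adjusted p under 0.05, 31 to the right and 47 to the left, and AQP5, SCTR, PPM1L and FAM13A stand at the top.

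AQP5, a water channel best known from glands, was at 1.76, 6.10, 0.69 and 0.95 TPM in CON 1 to CON 4 and at 299, 45.4, 86.5 and 146 TPM in SA 1 to SA 4. The lowest SA library was above the highest CON library by a wide margin. The means were 2.38 ± 2.53 and 144 ± 111 TPM (SD, n = 4), a change of 5.35 (SE 0.61, adjusted p = 0.00306, limma). Outside fat, AQP5 was at 0 TPM in liver in both diets, at group means up to 0.79 TPM in hypothalamus and up to 0.35 TPM in pituitary. Its neighbour AQP2, another water channel, was at 0.32 to 2.63 TPM in CON and 0.97 to 5.45 TPM in SA, which overlap (change 0.66, adjusted p = 0.516, limma).

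SCTR, the receptor of the gut hormone secretin, was at 0.75, 0.49, 1.37 and 3.00 TPM in CON and at 37.5, 29.5, 26.6 and 20.2 TPM in SA. All 4 SA libraries were high, with means of 1.40 ± 1.13 and 28.4 ± 7.18 TPM (n = 4) and a change of 3.69 (SE 0.45, adjusted p = 0.00383, limma). TMEM37, a membrane protein related to calcium channel subunits whose gene lies next to SCTR, was at 0.86, 0.36, 0.98 and 0.56 TPM in CON and at 11.5, 7.52, 8.01 and 7.52 TPM in SA. It rose by 2.51 (SE 0.38, adjusted p = 0.0119, limma), and its adjusted p was at most 0.0643 when 1 library was left out, with the call lost without CON 1 or without SA 3.

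The genes next to those that rose were looked up by name and are described with their values known. Of 19 tested neighbours of the named genes that rose, 4 had all SA libraries above all CON libraries and 1, the chemokine CCL1, had all below (background 4.63% and 5.05%). Of these 4, SCTR and TMEM37 are neighbours of each other and were counted because both had passed, which leaves SGK2 and HSD17B14. SGK2, a kinase of the family of serum- and glucocorticoid-regulated kinases, lies next to IFT52 and was at 20.7, 32.6, 16.6 and 12.6 TPM in CON and 99.9, 69.4, 72.0 and 65.2 TPM in SA (change 1.91, SE 0.44, adjusted p = 0.0589, limma). HSD17B14, a short-chain dehydrogenase, lies next to BCAT2 and was at 4.98, 3.76, 1.38 and 0.64 TPM in CON and 20.3, 7.24, 15.3 and 27.9 TPM in SA (change 2.38, SE 0.54, adjusted p = 0.0569). Of 15 tested neighbours of the named genes that fell, 1 was above and 2 were below without overlap, beside the same background of 4.63% and 5.05%. The strand setting of the counting is not given, so reads of overlapping or antisense neighbours may not have been kept apart.

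PPM1L, a protein phosphatase of the endoplasmic reticulum, was at 5.00, 10.8, 2.99 and 3.46 TPM in CON and 48.4, 71.6, 52.2 and 51.0 TPM in SA. The SA libraries were close to each other, and the change was 3.23 (SE 0.46, adjusted p = 0.0112, limma). IFT52, a part of the transport machinery inside cilia, was as tightly grouped, at 22.9, 35.0, 28.2 and 26.0 TPM in CON and 134, 177, 166 and 137 TPM in SA. It rose by 2.42 (SE 0.40, adjusted p = 0.0171).

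SLC22A6, the organic anion transporter OAT1, which takes up organic anions in exchange for dicarboxylates, was at 5.99, 11.6, 7.57 and 4.44 TPM in CON and 73.0, 32.3, 44.0 and 55.6 TPM in SA. The diets did not overlap, and the change was 2.65 (SE 0.46, adjusted p = 0.0185, limma). The other named genes among the 10 of smallest p that rose were TPBGL, a surface glycoprotein (change 2.92), TMEM132E (2.34) and FKBP1B, a regulator of the ryanodine receptor (1.76). FKBP1B was scarce, at 0.11 to 0.51 TPM in CON and 2.45 to 4.61 TPM in SA.

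BCAT2, the mitochondrial enzyme that starts the breakdown of branched-chain amino acids, was among the abundant genes that rose. It was at 96.1, 270, 100 and 88.6 TPM in CON and at 1622, 467, 642 and 896 TPM in SA. CON 2 was high among the CON libraries and still below every SA library. The means were 139 ± 87.4 and 907 ± 509 TPM (n = 4), a change of 2.71 (SE 0.49, adjusted p = 0.0206, limma). The adjusted p was 4.55e-05 without CON 2 and SA 1, and the call was lost when CON 1, CON 3, CON 4, SA 3 or SA 4 was left out alone (highest adjusted p = 0.0878).

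MGST3, a glutathione transferase of membranes, was at 508, 1477, 517 and 406 TPM in CON and at 3515, 2196, 2393 and 2399 TPM in SA. It rose by 2.03 (SE 0.43, adjusted p = 0.0458, limma), with no overlap, and the call held without CON 2 but not without any other single library (highest adjusted p = 0.171). Among the other genes that rose, ALOX5, the 5-lipoxygenase of leukotriene synthesis, went from at most 0.20 TPM in CON to 1.72 to 6.89 TPM in SA (change 1.81), and BCL2A1, an inhibitor of cell death found in leukocytes, from at most 0.78 to between 2.20 and 26.0 TPM (change 2.88). Of the 9 markers of mast cells and neutrophils, whose sum reached 5770 TPM in SA 4, 6 were under 1 TPM in every library, CSF3R and MPO included, and their part in these changes was not tested. CD247, the zeta chain of the T cell receptor, was at 0.52 to 2.35 TPM in CON and 5.41 to 13.1 TPM in SA (change 2.17), while the summed T, NK and B cell markers were at 4.09 to 12.0 TPM in CON and 2.66 to 5.84 TPM in SA. A copy of the U1 small nuclear RNA that passed the test was at 0 TPM in 3 CON libraries and 14.3 TPM in the other, and was no longer past the threshold with the library kind as a covariate (adjusted p = 0.064).

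**Figure D3:**
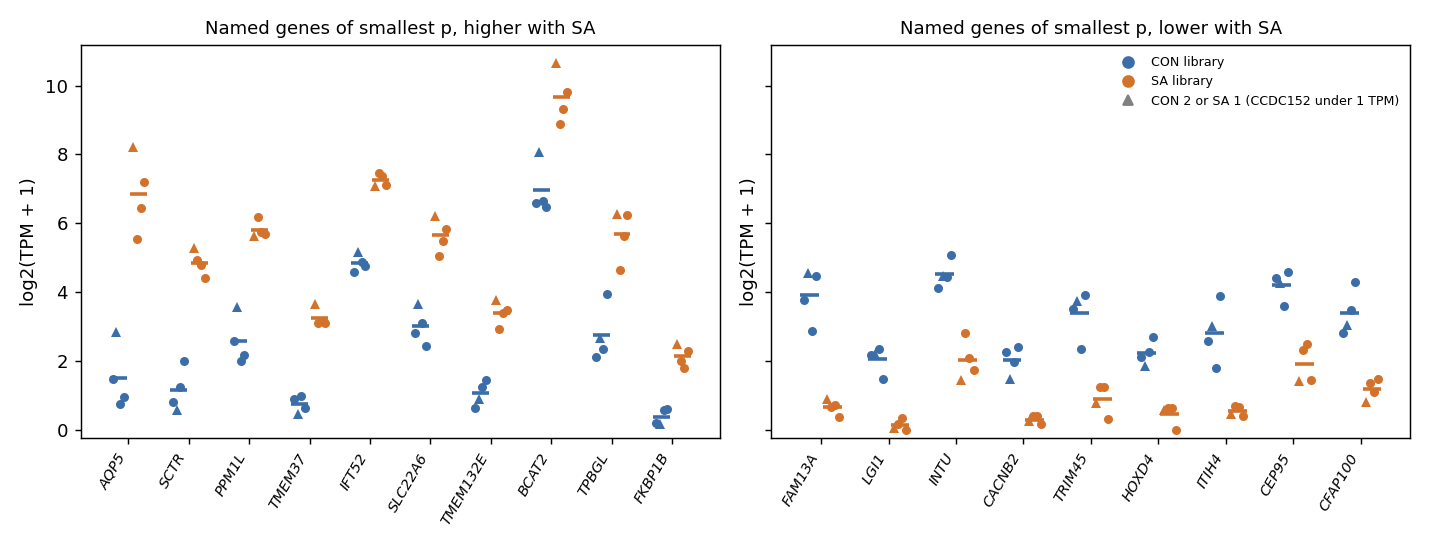
Level of named genes of smallest p in each direction, as log2(TPM + 1) (y axis), with 1 point per library (blue, CON; orange, SA; triangles, CON 2 and SA 1) and a bar at each mean. For all genes shown the 4 libraries of one diet lie above the 4 of the other, and BCAT2 is the most abundant. The filter fixed this lack of overlap for genes under 1 TPM in all 4 libraries of a diet.

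FAM13A, a gene tied to fat distribution in human genetics, was at 12.6, 22.5, 6.32 and 21.1 TPM in CON and at 0.86, 0.57, 0.63 and 0.28 TPM in SA. Every SA library was under 1 TPM. The means were 15.6 ± 7.61 and 0.585 ± 0.239 TPM (n = 4), and FAM13A fell by 3.26 (SE 0.46, adjusted p = 0.0112, limma). In liver the group means of FAM13A were 16.6 TPM in CON and 23.5 TPM in SA.

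INTU, an effector of planar cell polarity needed to build cilia, was at 16.3, 20.9, 20.7 and 32.5 TPM in CON and 1.71, 6.06, 3.23 and 2.33 TPM in SA (change −2.50, SE 0.46, adjusted p = 0.0216). CEP95, a protein of the centrosome, changed by −2.29 and CFAP100, a protein of motile cilia, by −2.21. These 3 fell while the cilium gene IFT52 rose, and no list of cilium genes was tested.

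LGI1, a secreted protein of neurons, went from between 1.79 and 4.06 TPM in CON to at most 0.26 TPM in SA (change −1.91). HOXD4, a homeobox gene of body position, went from between 2.62 and 5.48 TPM to at most 0.56 TPM (change −1.77), CACNB2 changed by −1.73 and TRIM45 by −2.48. ITIH4, a plasma protein made in liver, was at 4.98, 7.10, 2.47 and 13.8 TPM in CON and between 0.31 and 0.60 TPM in SA (change −2.27, SE 0.44, adjusted p = 0.028, limma). Its highest value was in CON 4, the library with liver transcripts, and the other 3 CON libraries were also above all SA libraries. With all SA libraries under 1 TPM, ITIH4 passed the filter only because all CON libraries reached 1 TPM.

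OGN, the matrix proteoglycan osteoglycin, was the most abundant gene that fell, at 104, 142, 34.5 and 48.1 TPM in CON and at 12.7, 12.9, 15.2 and 13.6 TPM in SA. The SA libraries were nearly equal, and the change was −2.30 (SE 0.49, adjusted p = 0.0488, limma). Summed fibroblast markers were at 389 to 912 TPM in CON and 421 to 1367 TPM in SA. LMOD1, an actin nucleator of smooth muscle, went from between 7.87 and 14.9 TPM to between 0.83 and 3.31 TPM (change −2.11), and the matrix protease ADAMTS10 from between 4.94 and 9.84 TPM to between 0.31 and 1.92 TPM (change −2.01).

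Of the 47 genes that fell, 29 had no name in the table, 61.7%, whereas 17.4% of all genes tested had none. Their CON means lay between 1.91 and 27.2 TPM. The 17.4% is over genes of all levels, and the share among equally scarce genes was not computed. Of the 31 genes that rose, 10 had no name (32.3%), and the most abundant of these, ENSOARG00020034652, went from a mean of 30.5 TPM to 226 TPM.

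Genes of fatty acid synthesis had higher values with SA but did not pass the test over all genes. Of 23 tested members, 21 had a higher and 2 a lower value, with a median change of 0.83 against −0.065 for all genes. None passed, and 4 lay above CON without overlap (background 4.63%), among them SLC25A1, THRSP and SCAP. SLC25A1, the citrate carrier that brings acetyl units out of mitochondria, was at 155, 332, 94.0 and 121 TPM in CON and at 1516, 371, 481 and 599 TPM in SA (change 2.02, SE 0.51, adjusted p = 0.0816, limma).

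CON 2 and SA 1 were each the highest library of their diet for most of these genes, among them ACSS2, FASN and SCD. ACSS2, which activates acetate, was at 278, 1574, 176 and 418 TPM in CON and at 7058, 926, 988 and 1088 TPM in SA. FASN, the fatty acid synthase, was at 236, 1278, 298 and 476 TPM in CON and at 4846, 1263, 1064 and 780 TPM in SA. SCD, the desaturase that makes oleate, was at 719, 6075, 444 and 1259 TPM in CON and 22909, 3392, 3174 and 2336 TPM in SA. For each of these 3 genes CON 2 was above 3 of the 4 SA libraries, whereas the other 3 CON libraries were below all SA libraries. The changes were 1.94 (SE 0.73), 1.72 (SE 0.60) and 1.97 (SE 0.86), with adjusted p = 0.257, 0.219 and 0.336 (limma).

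With the library kind as a covariate, 9 of the 23 members passed, all higher, beside 3.86% of all genes. Among them were ACSS2, FASN, SCD, ELOVL5, ELOVL6, SLC25A1, SREBF1 and THRSP, with adjusted p between 0.00168 and 0.0329 (limma). Without CON 2 and SA 1, 7 of the 23 passed, beside 2.14% of all genes. With mitochondrial and ribosomal RNA genes removed, 2 passed as higher, SLC25A1 and THRSP, beside 1.34% of all genes, and the median of the list was 0.56 against −0.366 for the same set of all genes. With quantile normalization none of the 23 passed, beside 186 of 11185 genes higher. SREBF1, the transcription factor that drives these enzymes, was at 8.43, 28.4, 4.47 and 17.1 TPM in CON and 167, 16.8, 39.3 and 76.1 TPM in SA, which overlap. THRSP, a regulator of lipid synthesis, did not overlap, at 883, 1765, 672 and 808 TPM in CON and 2255, 2763, 2427 and 1832 TPM in SA (change 1.26, SE 0.39, adjusted p = 0.152). ACACA, acetyl-CoA carboxylase, changed by 0.66 (SE 0.63, adjusted p = 0.669) and did not pass in the fit with the covariate either.

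AGPAT2 was the gene of triglyceride assembly that passed, 1 of 16 tested (background 0.277%). It encodes the acyltransferase that makes phosphatidic acid and stood at 919, 1030, 337 and 931 TPM in CON and at 5153, 1628, 3955 and 6699 TPM in SA. The lowest SA library, SA 2, was above the highest CON library. The means were 804 ± 315 and 4359 ± 2139 TPM (n = 4), a change of 2.39 (SE 0.49, adjusted p = 0.0403, limma), and the call was lost when CON 1, CON 3, CON 4, SA 1, SA 3 or SA 4 was left out (highest adjusted p = 0.115). The list as a whole had 11 of 16 tested members at a higher value and a median of 0.31. DGAT2, which makes the final ester bond, was at 143, 615, 173 and 315 TPM in CON and 3299, 614, 751 and 945 TPM in SA (change 2.05, SE 0.57, adjusted p = 0.111), and passed with the covariate (adjusted p = 0.00229). Its adjusted p was 0.0468 with mitochondrial and ribosomal RNA genes removed and 0.107 with quantile normalization. GPAM, the first acyltransferase, changed by 0.99 (adjusted p = 0.469), and LPIN1, the phosphatidate phosphatase, by −1.29 (adjusted p = 0.499).

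**Figure D4:**
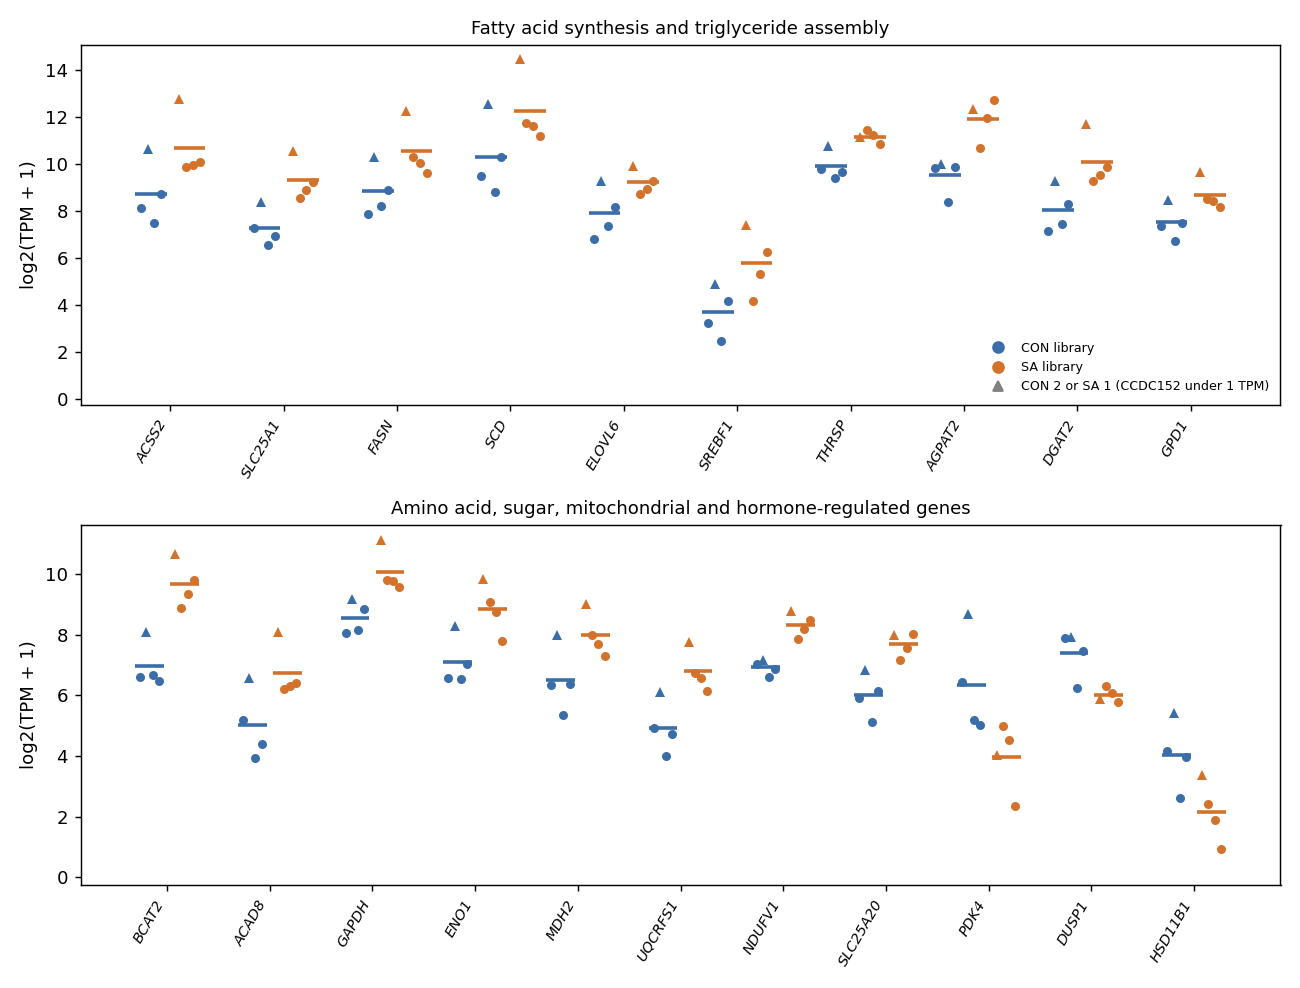
Level of selected genes of energy metabolism as log2(TPM + 1) (y axis), with 1 point per library (blue, CON; orange, SA; triangles, CON 2 and SA 1) and a bar at each mean; the selection was made with the values known. BCAT2, AGPAT2, SLC25A1 and THRSP do not overlap between diets, whereas for ACSS2, FASN and SCD the triangle of CON 2 lies among the SA points.

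Branched-chain amino acid breakdown was higher in 16 of 18 tested members, with a median of 0.62. BCAT2 passed (background 0.277%), and with the covariate 6 passed as higher (background 3.86%), among them BCAT2, BCKDHA, IVD, ACAD8 and HSD17B10. With mitochondrial and ribosomal RNA genes removed 3 passed as higher (background 1.34%). With quantile normalization 1 did, beside 186 of 11185 genes. HSD17B10, a mitochondrial dehydrogenase of the isoleucine route, was at 221, 266, 142 and 175 TPM in CON and 561, 356, 393 and 448 TPM in SA, without overlap (change 1.15, SE 0.39, adjusted p = 0.198, limma).

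Glucose uptake and glycolysis had 14 of 15 tested members at a higher value and a median of 0.80, none past the threshold and 4 above CON without overlap (background 4.63%). GAPDH was at 268, 582, 283 and 458 TPM in CON and 2207, 894, 863 and 757 TPM in SA (change 1.50, SE 0.44, adjusted p = 0.135, limma). SLC2A4, the insulin-responsive glucose carrier GLUT4, was at 5.64, 11.1, 5.92 and 10.8 TPM in CON and 52.1, 14.3, 19.8 and 23.0 TPM in SA (change 1.49, SE 0.49, adjusted p = 0.187). With the covariate 6 members passed, all higher (background 3.86%). With mitochondrial and ribosomal RNA genes removed 3 passed as higher (background 1.34%), and with quantile normalization none did. GAPDH neighbours NCAPD2, a condensin gene that fell from between 2.78 and 13.0 TPM to between 0.66 and 0.96 TPM.

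Nuclear genes of oxidative phosphorylation had higher values in all 31 tested members, from 0.31 to 2.01, with a median of 0.93. None passed, 12 lay above CON without overlap (background 4.63%), and 12 passed as higher with the covariate (background 3.86%). With mitochondrial and ribosomal RNA genes removed 3 passed as higher (background 1.34%). With quantile normalization 2 did, beside 186 of 11185 genes. UQCRFS1, the iron-sulphur subunit of complex III, was at 29.3, 67.9, 14.9 and 25.3 TPM in CON and 216, 107, 94.9 and 70.0 TPM in SA (change 1.88, SE 0.52, adjusted p = 0.113, limma). NDUFV1, a subunit of complex I, was at 131, 144, 97.2 and 117 TPM in CON and 442, 230, 289 and 360 TPM in SA (change 1.40, SE 0.39, adjusted p = 0.115).

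The mitochondrially encoded subunits did not share this direction. Of 12 tested members 9 had a lower value, with a median of −0.26 and none past the threshold. COX2, a subunit of cytochrome oxidase, was at 29132, 17696, 56518 and 41899 TPM in CON and 7896, 23506, 23118 and 21280 TPM in SA, and changed by −0.94 (SE 0.44, adjusted p = 0.351, limma). ND5 changed by −1.08 (SE 0.48, adjusted p = 0.327). With the covariate these 2 genes passed as lower, beside 2.96% of all genes.

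The tricarboxylic acid cycle, which holds succinate itself, was higher in 24 of 26 tested members with a median of 0.59, none past the threshold. SDHA and SDHB, the catalytic subunits of succinate dehydrogenase, changed by 0.98 (SE 0.77, adjusted p = 0.591, limma) and 0.76 (SE 0.50, adjusted p = 0.509). SDHA was at 42.0, 194, 16.4 and 29.7 TPM in CON and 353, 79.0, 67.4 and 33.9 TPM in SA, which overlap. SUCLG1, a subunit of the enzyme that makes succinate, was the only 1 of the 26 that did not overlap (background 4.63%). It was at 128 to 277 TPM in CON and 315 to 450 TPM in SA (change 0.93, SE 0.40, adjusted p = 0.31). Its partner SUCLG2 changed by −0.58. With the covariate 5 of the 26 passed as higher (background 3.86%), among them IDH3B, OGDH, SDHC and MDH2. Without CON 2 and SA 1, 3 passed as higher (background 2.14%). With mitochondrial and ribosomal RNA genes removed 1 did (background 1.34%), and with quantile normalization none did.

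The receptor SUCNR1 was scarce and below the filter, at 0.89, 2.28, 0.40 and 0.38 TPM in CON and 0.45, 0.40, 0.30 and 0.07 TPM in SA. Of 13 tested genes of succinate sensing and transport none passed, 10 had a higher value and the median was 0.37. SLC16A1, the monocarboxylate carrier MCT1, was at 9.15, 27.2, 5.49 and 11.5 TPM in CON and 38.0, 21.3, 24.7 and 28.4 TPM in SA (change 1.21, SE 0.50, adjusted p = 0.297, limma). HIF1A changed by 0.37 (SE 0.57, adjusted p = 0.812), and HIF3A was at 2.43 to 30.7 TPM in CON and 0.11 to 2.84 TPM in SA (change −2.03, SE 0.64, adjusted p = 0.162).

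Targets of hypoxia-inducible factors had lower values in 12 of 19 tested members, with a median of −0.18. ADM, the vasodilator adrenomedullin, was at 250, 346, 135 and 251 TPM in CON and 21.9, 119, 77.0 and 9.10 TPM in SA. These did not overlap, and the change was −2.61 (SE 0.67, adjusted p = 0.0841, limma). With mitochondrial and ribosomal RNA genes removed, ADM, NDRG1, DDIT4 and MXI1 passed as lower, beside 9.46% of all genes. With quantile normalization 3 passed as lower, beside 229 of 11185 genes. None of the 19 passed with the covariate or without CON 2 and SA 1. In these fits ADM had adjusted p = 0.0968 and 0.41 (limma).

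Fatty acid oxidation was higher in 17 of 22 tested members, with a median of 0.77 and none past the threshold. SLC25A20, the carnitine carrier of the inner mitochondrial membrane, was at 58.9, 113, 33.5 and 70.0 TPM in CON and 250, 143, 188 and 257 TPM in SA, without overlap (change 1.68, SE 0.46, adjusted p = 0.102, limma). CPT1B, a carnitine transferase that admits fatty acids to mitochondria, was scarce at 0.52 to 1.93 TPM over all libraries (change −0.48, SE 0.30, adjusted p = 0.489). Cholesterol synthesis was higher in 19 of 23 members, with a median of 0.59, none past the threshold and 3 past it as higher with the covariate (background 3.86%), among them ACAT2 and MVD. With mitochondrial and ribosomal RNA genes removed none passed. With quantile normalization 1 passed as higher, beside 186 of 11185 genes.

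Lipolysis and lipid droplet genes were mixed around a median of 0.40, with 16 of 21 at a higher value and none past the threshold. MGLL, the lipase that releases the last fatty acid, was at 51.1 to 79.2 TPM in CON and 112 to 179 TPM in SA (change 1.16, SE 0.40, adjusted p = 0.215). The lipases PNPLA2 and LIPE changed by 0.60 (SE 0.44) and −0.12 (SE 0.67). PLIN1, the coat protein of lipid droplets, was at 142 to 751 TPM in CON and 114 to 688 TPM in SA (change 0.39, SE 0.61, adjusted p = 0.812).

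Fatty acid uptake genes had 8 of 14 members at a higher value and a median of 0.081. LPL, the lipase that frees fatty acids from lipoproteins, was at 336, 639, 67.5 and 154 TPM in CON and 59.1, 178, 138 and 46.1 TPM in SA, which overlap (change −1.26, SE 0.65, adjusted p = 0.398, limma). ACSL1, which activates fatty acids, changed by 1.52 (SE 0.72, adjusted p = 0.357) and passed with the covariate (adjusted p = 0.0113). It did not pass with mitochondrial and ribosomal RNA genes removed (adjusted p = 0.164) or with quantile normalization (adjusted p = 0.339).

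Adipocyte identity genes had a median of 0.53, with 14 of 18 at a higher value and none past the threshold. PPARG, the master regulator of adipocytes, changed by −0.27 (SE 0.44, adjusted p = 0.822, limma), and CEBPA, its partner, by 1.45 (SE 0.56, adjusted p = 0.269, and 0.021 with the covariate). CEBPA did not pass with mitochondrial and ribosomal RNA genes removed (adjusted p = 0.0644) or with quantile normalization (adjusted p = 0.156). Of the adipokines, ADIPOQ was at 3295, 9604, 1327 and 1071 TPM in CON and 5419, 2572, 2212 and 1390 TPM in SA, and LEP at 22.6 to 140 TPM and 21.3 to 118 TPM, both overlapping. RBP4, the carrier of retinol, was at 1046, 1423, 1483 and 1020 TPM in CON and 3465, 3511, 3085 and 2109 TPM in SA. It did not overlap, and the change was 1.28 (SE 0.35, adjusted p = 0.106, and 0.015 with the covariate). The adjusted p of RBP4 was 0.0833 with mitochondrial and ribosomal RNA genes removed and 0.0917 with quantile normalization.

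Genes induced by glucocorticoids had the lowest median of the lists with 10 or more tested members, −0.85, with 14 of 15 at a lower value and none past the threshold. ZBTB16 was at 5.09, 27.3, 4.07 and 7.92 TPM in CON and 2.36, 3.96, 2.53 and 0.30 TPM in SA (change −1.67, SE 0.58, adjusted p = 0.216, limma). PDK4, the kinase that shuts off pyruvate oxidation, was at 86.5, 412, 35.4 and 31.3 TPM in CON and 15.5, 30.6, 22.2 and 4.17 TPM in SA (change −2.35, SE 0.77, adjusted p = 0.185). Both were lower without overlap (background 5.05%). With the covariate ZBTB16, DUSP1 and HSD11B1 passed as lower, beside 2.96% of all genes. HSD11B1, which regenerates active glucocorticoid inside fat, changed by −1.88 (SE 0.62, adjusted p = 0.191, and 0.016 with the covariate). With mitochondrial and ribosomal RNA genes removed, 8 of the 15 passed as lower, beside 9.46% of all genes. With quantile normalization 3 did, beside 229 of 11185 genes. Without CON 2 and SA 1 only 1 of the 15 passed as lower, beside 1.42% of all genes.

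Immediate early genes, which respond within minutes to handling and to signals, had lower values in 16 of 21 members with a median of −0.52. FOS was at 99.1, 155, 24.1 and 33.4 TPM in CON and 67.7, 13.0, 24.4 and 35.6 TPM in SA, with CON 1 and CON 2 the highest. Core clock genes were split, 8 higher and 9 lower, with a median of −0.081, and none had an unadjusted p under 0.05. PER1 was at 15.9, 26.3, 8.40 and 18.9 TPM in CON and 24.1, 5.53, 6.02 and 6.57 TPM in SA. What differences in the hour of sampling contribute was not tested.

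Thermogenic genes had 10 higher and 4 lower values of 14 tested, with a median of 0.29 and none past the threshold. PDK4, described above among glucocorticoid targets, also belongs to this list and was its member below CON without overlap. ELOVL3, an elongase of brown and beige fat, was at 0, 0.05, 0.08 and 1.22 TPM in CON and 7.98, 0.68, 4.66 and 9.40 TPM in SA (change 2.12, SE 0.52, adjusted p = 0.0727, limma), and CON 4 was above SA 2. UCP1 was at 0.39, 2.45, 0 and 0 TPM in CON and 2.76, 4.80, 3.61 and 0.13 TPM in SA, and its relative UCP2 changed by 0.39 (SE 0.60, adjusted p = 0.815). Antioxidant genes were higher in 16 of 21 members with a median of 0.29, and TXN, PRDX1, GPX1 and GPX4 lay above CON without overlap (background 4.63%). GPX4, which detoxifies lipid peroxides, was at 1180, 855, 883 and 1771 TPM in CON and 2211, 2023, 2791 and 3930 TPM in SA (change 1.24, SE 0.38, adjusted p = 0.154).

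Lists of signalling and stress had medians between −0.39 and 0.18, against −0.065 for all genes. Insulin signalling had 7 higher and 13 lower values with a median of −0.15, the insulin-like growth factor and growth hormone genes 7 and 5 with a median of 0.13, and inflammation 4 and 6 with a median of −0.12. INSR, the insulin receptor, was at 5.93 to 63.4 TPM in CON and 2.06 to 9.28 TPM in SA (change −1.17, SE 0.65, adjusted p = 0.432, limma). Interferon-stimulated genes had 3 higher and 11 lower values with a median of −0.39. Genes of endoplasmic reticulum stress had a median of 0.10, and heat shock proteins of 0.18. None of these members passed the test. SDF2L1, which helps proteins fold in the endoplasmic reticulum, was at 16.3, 25.8, 14.4 and 17.7 TPM in CON and 52.2, 51.2, 49.0 and 39.1 TPM in SA, without overlap (change 1.34, SE 0.42, adjusted p = 0.155, limma, and 0.0171 with the covariate).

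Collagen and matrix genes were split, 13 higher and 17 lower, with a median of −0.078 and none past the threshold. COL1A1 changed by −0.028 (SE 0.59). RGS5, a marker of pericytes, was at 44.5, 82.8, 26.5 and 37.2 TPM in CON and 5.33, 15.0, 12.3 and 8.12 TPM in SA. The diets did not overlap, and RGS5 changed by −2.09 (SE 0.49, adjusted p = 0.0607, limma), while the 11 tested markers of smooth muscle and pericytes had a median of 0.046 and summed levels of 155 to 392 TPM in CON and 72.5 to 255 TPM in SA. Among 7 tested genes named in studies of the fat tail, PDGFD, a growth factor, was at 20.8, 56.8, 6.59 and 6.51 TPM in CON and 7.94, 7.93, 5.74 and 0.76 TPM in SA (change −1.56, SE 0.69, adjusted p = 0.328).

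**Figure D5:**
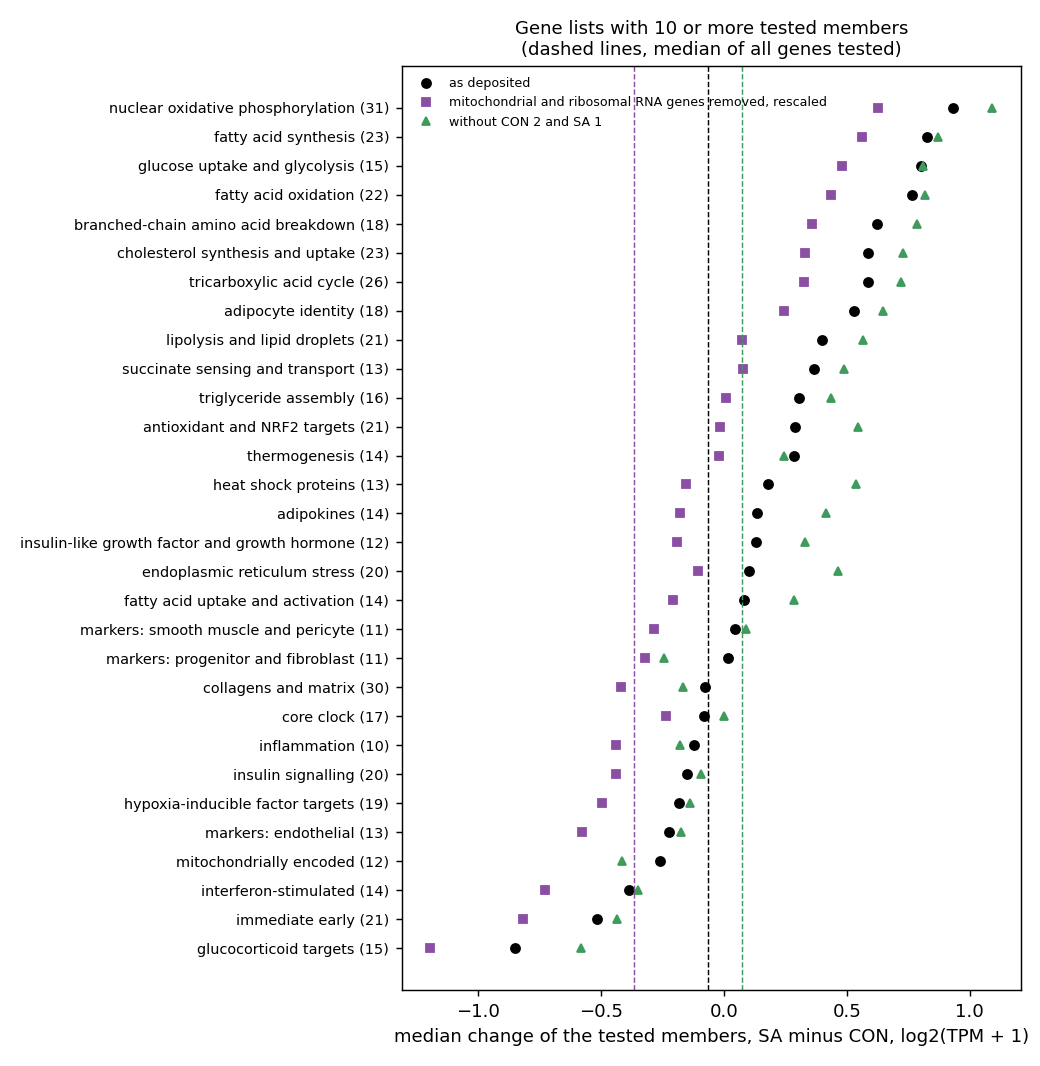
Median change (x axis, SA minus CON, log2(TPM + 1)) of the gene lists with 10 or more tested members (number in parentheses), as deposited, with mitochondrial and ribosomal RNA genes removed, and without CON 2 and SA 1; dashed lines are the medians of all genes tested in the same colour. Nuclear oxidative phosphorylation is highest at 0.93 and glucocorticoid targets lowest at −0.85 as deposited, and both keep these places among the lists after the removal.

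Whether the difference between the diets was the same in liver was tested as an interaction over all 32 libraries. The 4 tissues were taken from the same 4 sheep per diet, and the fit treats the libraries as independent, since no label says which libraries share a sheep. The difference in tail fat was above that in liver for 3692 genes (33%) and below it for 817 (7.3%) (limma, adjusted p under 0.05), with a median of 0.68. Liver libraries also differed in composition, with mitochondrial shares of 20.2% to 27.8% in CON and 51.7% to 70.9% in SA. CCDC152, which sets the library kind, was at a mean of 0 TPM in liver CON and 526 TPM in liver SA. SELENOP was at means of 4926 and 500 TPM. Diet and library kind could thus not be told apart in liver, nor in the interaction, with or without mitochondrial genes. With mitochondrial and ribosomal RNA genes removed the balance turned, to 1320 genes above and 3912 below. Only genes that kept their sign in both are described here.

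MGST3 was at a mean of 324 TPM in liver CON and 95.3 TPM in liver SA, opposite to its rise in tail fat, and the interaction was 4.18 (adjusted p = 4.98e-06, limma, and 1.76e-05 after the removal). SDHA had an interaction of 4.26 (adjusted p = 5.55e-05), from 0.98 in tail fat and −3.28 in liver, and 2.94 after the removal (adjusted p = 4.77e-05). Its liver means were 116 TPM in CON and 10.8 TPM in SA. In tail fat SDHA was at 194 TPM in CON 2 and 353 TPM in SA 1, against 16.4 to 79.0 TPM in the other libraries. Diet and library kind cannot be told apart in its interaction. NEDD8, a ubiquitin-like protein, had an interaction of 3.72 (adjusted p = 1.83e-07) and HSD17B13, a lipid droplet enzyme, of 3.50 (adjusted p = 4.51e-08). AGPAT2 and BCAT2 had interactions of 2.42 and 3.24 (adjusted p = 0.00131 and 0.00488), and neither passed after the removal (adjusted p = 0.145 and 0.0915).

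INTU was at a mean of 4.85 TPM in liver CON and 52.8 TPM in liver SA, opposite to its fall in tail fat, with an interaction of −5.92 (adjusted p = 2.34e-07, limma). Of the 47 genes that fell in tail fat, 42 had a higher value with SA in liver (89.4%), where 18.3% of all genes tested did. Of the 31 that rose in tail fat, 9 had a higher value in liver. The interaction passed for 45 of the 47 as deposited, beside 40.3% of all genes, and for 47 of the 47 after the removal, beside 4678 of 11185 genes. For the 31 that rose it passed for 29 as deposited and for 25 after the removal. These genes were chosen by their tail fat change, which the interaction contains, so a high share was built in. These shares are therefore no test of a difference from liver. ITIH4 did not pass as deposited, with −2.27 in tail fat and −2.25 in liver.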

How the data were processed

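RNA-seq was done on tail fat of 8 Tan sheep, 4 per diet. The labels' protocols name TRIzol for extraction, oligo(dT) selection, a stranded library kit and a NovaSeq sequencer. The tools named by the submitters' processing notes are fastp, HISAT2 and RSEM, and neither their versions nor the genome build, annotation or strand setting is given there. The authors deposited expression as TPM, with no scaling between libraries. The 8 tail fat columns summed to between 951010 and 987320 TPM. TPM keeps no sequencing depth, and counting error could not be computed. The authors also deposited 8 columns of group means, which were not used. Symbols come from the table, in which 13350 of 30722 rows had no name and 64 names stood on several rows.

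From these values, log2(TPM + 1) was tested with limma 3.58.1 (R 4.3.3; mean trend, robust moderation) on genes that reached 1 TPM in 4 or more of 8 libraries, two-sided, with Benjamini-Hochberg adjustment over all genes tested and a threshold of 0.05. SE is the moderated standard error. The interaction with liver used 8 group means over 32 libraries, with no term for sheep. Neighbours of genes came from a RefSeq table of the assembly ARS-UI_Ramb_v3.0, matched by symbol for 35 of 38 named genes. On simulated data for this comparison with 11185 genes, the test recovered 2%, 36%, 70% and 96% of 50 genes each changed by 1, 2, 3 and 4 on the log2 scale, and called 8 unchanged genes. The noise was drawn independently for each gene, and the changed genes had a mean log2(TPM + 1) above 2. Shifts shared by many genes of a library, and changes of scarcer genes, were not simulated, so these rates do not cover them.

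The gene lists, markers and named genes were chosen with earlier results of these data known. The text names a panel of adipose genes, the 10 named genes of smallest p per direction, up to 2 members of smallest p per direction of each list, 5 genes per direction of the interaction, and further genes chosen with their values known. These are the other genes that passed, members counted in small numbers, neighbours, and PER1, COL1A1, SUCLG1 and FOS. Of the panel, ADRB3, PPARGC1A and IRS1 were below the filter, and CD36 was not analysed here. Some genes that the rules name are not reported here. The alternatives were a pseudocount of 0.1, removal of mitochondrially encoded and ribosomal RNA genes with rescaling to 1000000, quantile normalization, no filter, a filter of 5 TPM, a replicate block, array weights, a joint fit of all 32 libraries, library kind (CCDC152 under 1 TPM) as a covariate, and leaving out libraries.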

Additional observations from a re-analysis of the deposited data

Results flagged for a closer look

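Within a diet, the gap of the highest or lowest library to its nearest neighbour was set against the range of the 4 libraries. Dixon's test was used for this on log2(TPM + 1), for 102 groups of values. It marked 10, where chance marks about 1 in 20. The groups come from the same libraries and are not independent. Values below are in TPM. SA 1 was far above the other SA libraries for CEBPA (715 against 281 to 297 TPM), ACSS2 (7058 against 926 to 1088 TPM), ACACA (455 against 96.2 to 103 TPM), SCD (22910 against 2336 to 3392 TPM) and TMEM37 (11.52 against 7.52 to 8.01 TPM), and far below them for CCDC152 (0.07 against 148 to 186 TPM). CON 3 was low for AGPAT2 (337 against 919 to 1030 TPM) and PNPLA2 (158 against 245 to 260 TPM). CON 2 was high for BCAT2 (270 against 88.6 to 100 TPM), and HOXD4 was at 0 TPM in SA 4 against 0.50 to 0.56 TPM.

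The difference between diets in tail fat departed from that in liver, by the limma interaction test, for AQP5 by 5.35, SCTR by 3.68, NEDD8 by 3.72, HSD17B13 by 3.50 and IFT52 by 3.29, and for INTU by −5.92, ZNF81 by −4.29, KLF8 by −4.18, CEP295 by −3.90 and CLK4 by −3.87. These were the 5 named genes of smallest p in each direction, and each kept its sign and its call after mitochondrial and ribosomal RNA genes were removed. AQP5 was at 0 TPM in liver in both diets, so its value is the tail fat change alone. For the liver part of these values, diet and library kind could not be told apart.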

How the results depend on the processing

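With limma, 78 genes passed in tail fat. The number was 62 with a pseudocount of 0.1, 1374 with mitochondrial and ribosomal RNA genes removed, 415 with quantile normalization, 27 of 6375 with a filter of 5 TPM, 2839 with array weights, 2014 in the joint fit of 32 libraries, 398 without CON 2 and SA 1, 763 with library kind as a covariate and 2605 with covariate and removal together. Array weights gave SA 3 a weight of 49.8 against at most 1.88 for the other libraries. Without a filter 0 of 22237 genes passed with limma, and 2588 had an unadjusted p under 0.05. Leaving out 1 library gave 8 to 314 genes. A pseudocount of 0.1 kept 59 of the 78 and quantile normalization 66. No gene of the 78 passed in the opposite direction in any of these fits. The cause of these differences was not tested. The replicate block gave 413 genes and kept all 78. No label says that equal numbers pair sheep across diets, and the deviations of libraries with the same number correlated at −0.342, −0.017, 0.112 and 0.249, so not every library went best with its own number. The interaction with liver passed for 4509 genes, for 3318 of 6375 with a filter of 5 TPM, and for 3554 to 6108 when 1 tail fat library was left out. Its share of positive calls was 81.9%, 54.1% with quantile normalization and 25.2% after the removal. TPM hides the depth, so the precision of scarce genes is unknown.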
